A study of Mus musculus with 9 samples.

Results

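The genes examined here encode the mitochondrial ribosomal proteins, the protein part of the ribosome inside mitochondria. They were taken as every row of the deposited array table that the platform annotation gives to a single symbol beginning with Mrpl (large subunit) or Mrps (small subunit) and a digit. The rule found 78 symbols among the 30102 genes named by 1 symbol. Of these, 4 are pseudogenes, which left 74 genes, each on a row of its own. The filter on dim rows, a mean log2 value of at least 5.31 over the 9 arrays, was passed by 73 of the 74, and these 73 were tested among 16615 genes. They comprise 47 proteins of the large subunit, with Mrps18a and Mrps30 counted there because the assembled particle holds them in the large subunit, and 26 proteins listed with the small subunit. Mrpl41 was the gene below the filter, with group means of 5.20 ± 0.17 in control, 5.20 ± 0.29 in knockout and 5.39 ± 0.09 in cold arrays (SD, n = 3 arrays each). Mrpl30, Mrpl53 and Mrps6 share their only row with a neighbouring symbol and were not members.

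The mitochondrial ribosome translates the few messages of the mitochondrial genome, all of which encode core subunits of the oxidative phosphorylation complexes. Its RNAs come from the mitochondrial genome, whereas every one of its proteins is encoded in the nucleus, made in the cytosol and imported. About as many of its proteins have a counterpart in bacterial ribosomes as lack one, and thermogenic (brown and beige) adipocytes, which burn fuel to make heat through the uncoupling protein Ucp1, are known for their dense mitochondria.

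The tissue was inguinal white adipose tissue, the subcutaneous depot of the mouse groin, hybridised as total RNA to Affymetrix Mouse Transcriptome Arrays. Of the 9 arrays, 3 came from controls at room temperature, whose genotype was Adiponectin-rtTA with TRE-Cre and Zfp423+/+, and 3 from knockouts at room temperature, whose genotype was Adiponectin-rtTA with Tre-CRE and Zfp423loxP/loxP. The other 3 came from control mice that spent the last 14 of the 28 days on doxycycline at 6 °C, which the study used to bring out beige adipocytes. All groups carried both transgenes and received doxycycline from 8 weeks of age for 28 days, so the Cre recombinase was present in the controls too, and deletion was limited to cells with an active Adiponectin promoter, that is, adipocytes. The stated purpose was to set Zfp423-deficient adipocytes against cold-induced beige adipocytes, Zfp423 being a zinc-finger factor that restrains the thermogenic programme. The labels do not state that each array stands for its own mouse. The p-values below set group differences against the spread between arrays only, which may be technical.

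The targeted gene and the marker lists were read first. Zfp423 stood at 8.74, 8.22 and 8.40 in the 3 control arrays, at 7.56, 8.15 and 8.04 in the knockout arrays and at 8.83, 8.72 and 8.40 in the cold arrays (log2 values in replicate order, as throughout). The knockout arrays all lay below the control arrays, but the difference of -0.53 ± 0.20 (moderated SE) did not pass (limma, Benjamini-Hochberg adjusted p = 0.254). Whole tissue holds cells that the Cre does not reach, and how the row's probes lie relative to the deleted part was not analysed here. Ucp1 rose from 11.74, 13.07 and 12.42 to 18.34, 19.92 and 19.68 in the knockout and 19.18, 19.00 and 18.86 in the cold (adjusted p = 0.00852 and 0.00223, limma), close to the top of the scale at 19.93. Of the marker lists, 10 of 10 adipocyte and 10 of 10 thermogenic adipocyte markers passed the filter, as did 16615 of the 30102 genes named by 1 symbol. So did 10 of 10 markers each for skeletal muscle and macrophages. For T cells, B cells and endothelium 9 of the 10 listed passed, and 0 of 10 epithelial or mammary markers did. Passing the filter therefore does not single out adipocytes. In bulk tissue, fewer cells of a type and less RNA per cell cannot be told apart.

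The knockout arrays differed among themselves. Knockout replicate 3 lay between the other 2 knockout arrays for 65.8% of all genes tested and for 89% of the mitochondrial ribosomal genes. In the controls the middle array was most often replicate 3 (58.5% of all genes, 41.1% of members), and in the cold replicate 2 (48.1% and 50.7%). Counts and calls that change without 1 of the knockout arrays are given below with that array left out.

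Promoter sequences are shown for 6 members, chosen after their values were seen: Mrpl16 and Mrpl50, the members that rose in the cold; Mrpl9 and Mrpl51, whose means were higher in both groups and which hold a motif; and Mrpl33 and Mrpl52, which hold a motif but whose group means stayed within 0.11 of one another. Each is the 250 bases before the RefSeq start on mouse build GRCm38.p6, written 5′ to 3′ in the direction of transcription. They lie at chr19:11770165-11770414, plus strand, chr4:49521084-49521333, minus strand, chr3:94443086-94443335, plus strand, chr6:125191950-125192199, plus strand, chr5:31613701-31613950, plus strand, and chr14:54426659-54426908, plus strand, in that order. Capitals mark the cores of NRF1 (GCATGCGC), of the ETS family to which GABP belongs (CCGGAAG) and of YY1 (AAGATGGC), and the ERR site (TCAAGGTCA), on either strand; other motifs are left in lower case.
Mrpl16: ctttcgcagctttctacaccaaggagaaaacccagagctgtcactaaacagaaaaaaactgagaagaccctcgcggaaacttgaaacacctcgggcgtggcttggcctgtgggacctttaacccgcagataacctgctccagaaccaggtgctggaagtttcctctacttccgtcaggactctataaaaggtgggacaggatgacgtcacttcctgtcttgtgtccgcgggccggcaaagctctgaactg
Mrpl50: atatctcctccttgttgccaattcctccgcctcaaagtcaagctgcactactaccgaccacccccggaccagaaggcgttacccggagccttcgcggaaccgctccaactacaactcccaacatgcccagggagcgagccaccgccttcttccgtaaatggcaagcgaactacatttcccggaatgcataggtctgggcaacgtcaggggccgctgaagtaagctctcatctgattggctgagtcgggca
Mrpl9: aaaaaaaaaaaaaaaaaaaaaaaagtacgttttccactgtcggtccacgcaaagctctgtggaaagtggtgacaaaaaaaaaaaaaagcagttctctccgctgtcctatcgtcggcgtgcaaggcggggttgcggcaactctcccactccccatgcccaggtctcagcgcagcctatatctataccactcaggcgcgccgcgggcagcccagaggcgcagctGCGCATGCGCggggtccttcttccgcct
Mrpl51: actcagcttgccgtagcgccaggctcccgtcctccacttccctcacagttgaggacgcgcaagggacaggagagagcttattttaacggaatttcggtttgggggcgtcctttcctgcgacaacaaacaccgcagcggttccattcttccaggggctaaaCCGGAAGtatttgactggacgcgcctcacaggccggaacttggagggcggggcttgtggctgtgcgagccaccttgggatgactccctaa
Mrpl33: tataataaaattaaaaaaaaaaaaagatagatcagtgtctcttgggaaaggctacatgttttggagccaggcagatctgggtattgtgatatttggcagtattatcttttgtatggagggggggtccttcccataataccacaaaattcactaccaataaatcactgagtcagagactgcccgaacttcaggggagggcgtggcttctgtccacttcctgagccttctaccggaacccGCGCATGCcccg
Mrpl52: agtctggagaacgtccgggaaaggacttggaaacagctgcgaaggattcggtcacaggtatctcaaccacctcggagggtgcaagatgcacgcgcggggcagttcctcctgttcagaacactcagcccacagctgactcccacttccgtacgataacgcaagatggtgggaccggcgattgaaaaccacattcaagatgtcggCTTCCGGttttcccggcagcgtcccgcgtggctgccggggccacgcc
Neither Mrpl16 nor Mrpl50 has any of these 4 motifs in the stretch shown. Mrpl9 carries the NRF1 core on both strands at overlapping positions, 28 and 26 bases before the start, and Mrpl33 carries it at 12 bases before the start. The ETS core lies 90 bases before the start in Mrpl51 and 47 bases before it in Mrpl52.

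NRF1 and GABP are known activators of nuclear genes for mitochondrial proteins. Their core letters were more frequent in windows around the starts of these genes than around those of genes at large. RefSeq windows of 300 bases (250 before the start and 50 after it) were matched for 65 of the 74 genes. The stretches shown above leave out the 50 bases after the start, so the shares below cover more sequence. The ETS core was in the windows of 24 of these 65 genes (36.9%), against 9.93% of 27025 genes in the table and 12.9% of its 17491 protein-coding genes. For the NRF1 core the share was 12.3% of members against 3.05% of all and 3.93% of protein-coding genes. A shorter NRF1 site (TGCGCA), which can overlap the core, was in 29.2% of members and 8.79% of all genes. YY1, another factor known at such promoters, had its core in 18.5% of members against 3.19% and 3.57%. The ERR site was in 0 of 65 windows and in 0.466% of all genes, the E-box (CACGTG) in 7.69% against 8.09%, and the TATA box (TATAAA) in 7.69% against 15.7%. The member windows were also richer in G and C, with a median GC content of 58.3% against 52.7% for all windows and 56.3% for those of protein-coding genes. A match of letters is a description and not a bound site. The differences were also split by motif, as medians that carry no test. The 24 tested members with the ETS core had a median log2 difference of 0.36 in the knockout and 0.30 in the cold, against 0.24 and 0.30 for the 40 with a window and no core. With the NRF1 core the medians were 0.18 and 0.34 (8 genes), and without it 0.29 and 0.29 (56 genes). With the YY1 core they were 0.24 and 0.26 (12 genes), and without it 0.29 and 0.32 (52 genes).

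Read over the whole set, the mitochondrial ribosomal genes stood higher in both groups than in room-temperature controls, by about the same small amount. Relative to the control mean, their mean log2 level was 0.02, -0.01 and -0.01 on the control arrays, 0.11, 0.62 and 0.29 on the knockout arrays and 0.35, 0.33 and 0.35 on the cold arrays. The 3 cold arrays were nearly level with one another, whereas the knockout arrays ran from just above the controls to above every cold array. The median member had a range between arrays of 0.13 within the controls, 0.46 within the knockouts and 0.17 within the cold group. Knockout replicate 2 gave the highest of all 9 values for 50 of the 73 genes. The share of all genes that read highest there was not counted, but 39.7% of all genes read higher there than on every cold array. The order knockout 1, then 3, then 2 held for 62 of them (84.9%), against 30.9% of all genes tested.

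**Figure D1:**
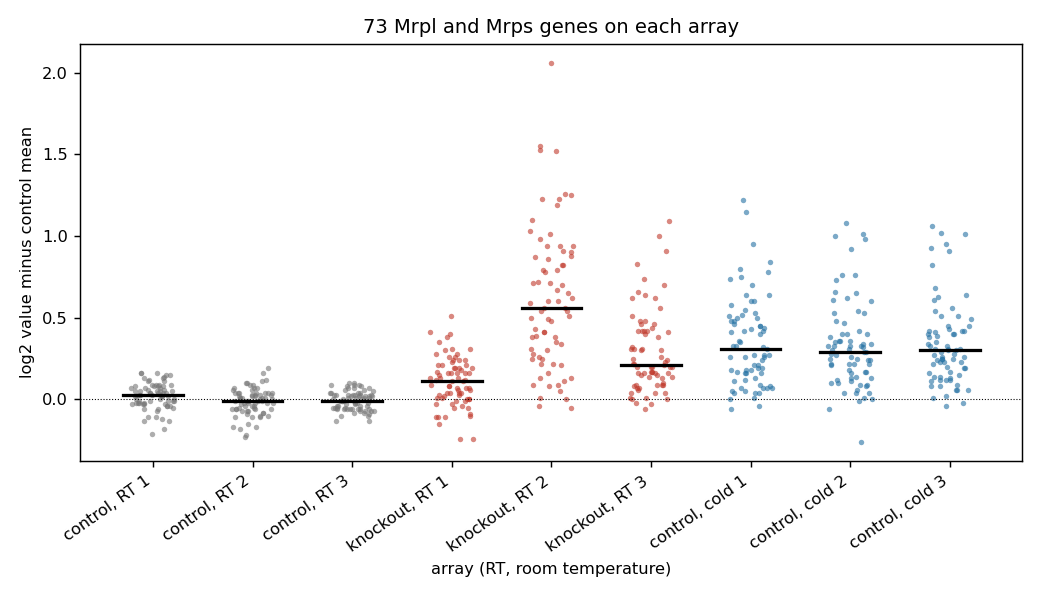
Log2 value of each of the 73 tested Mrpl and Mrps genes on each array, minus that gene's mean over the 3 room-temperature controls (1 point a gene; bars, medians). The knockout arrays spread widely, with replicate 2 above and replicate 1 below the cold arrays, while the 3 cold arrays lie level.

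In the knockout, 0 of the 73 genes passed the test across all genes (limma, adjusted p under 0.05), where 0.379% of all genes tested did. At an unadjusted p under 0.05, 37 members were higher and 0 were lower, where 16.3% of all genes reached that level, 8.96% as higher. The difference was above 0 for 67 of 73 members (all genes, 56.9%). In 40 of 73 members, or 54.8%, all 3 knockout arrays lay above all 3 controls, where 9.41% of all genes did so. The median log2 difference was 0.28, a 1.22-fold level, with quartiles of 0.15 and 0.50 and extremes of -0.05 and 1.22; over all genes tested it was 0.02. Without knockout replicate 1, 18 members rose and 0 fell, and 5.06% of all genes passed. Of the members named below, Mrpl9, Mrpl12, Mrpl15, Mrpl18, Mrpl24, Mrps2, Mrps18b and Mrps36 were among these 18 (adjusted p from 0.0152 to 0.0414). Without each of the other arrays in turn, 0 passed, and the median lay between 0.19 (without knockout replicate 2) and 0.36 (without knockout replicate 1).

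In the cold, 2 of the 73 genes rose, Mrpl16 and Mrpl50, and 0 fell, where 1.36% of all genes tested rose and 0.205% fell. At an unadjusted p under 0.05, 34 were higher and 0 lower, where 20.4% of all genes reached that level, 9.37% as higher. The difference was above 0 for 71 of 73 members, against 43.3% of all genes. In 60 members, or 82.2%, the 3 cold arrays all lay above the 3 controls, against 14.7% of all genes. The median log2 difference was 0.30, a 1.23-fold level, with quartiles of 0.16 and 0.45 and extremes of -0.11 and 1.10; over all genes it was -0.02. The count of members that rose depended on the arrays used: it was 12 without knockout replicate 1, where 4.95% of all genes passed, 20 without knockout replicate 2, where 5.92% did, and 0 without each of the other 7 arrays in turn. Mrpl9, Mrpl39, Mrps22, Mrps27 and Mrps36 passed in both of these fits, Mrps10 and Mrps18b without knockout replicate 1 only, and Mrpl12 without knockout replicate 2 only (adjusted p from 0.00955 to 0.0462). The count was 35 when the room-temperature controls and cold arrays were fitted alone, where 8.11% of all genes passed, and the median was 0.30 there too. In the fit to all 9 arrays the groups share 1 estimate of the spread, so the knockout arrays enter the cold p-values.

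Cold and knockout arrays were also set against each other. Here 0 of 73 members passed (limma, adjusted p under 0.05), where 2.43% of all genes did, 1.25% as higher and 1.18% as lower in the cold. At an unadjusted p under 0.05 there were 6 members, 5 of them higher, where 26.9% of all genes reached that level, 10.1% as higher. The median log2 difference was 0.00 (all genes, -0.03). The cold was above the knockout for 34 members and below it for 39, against 42.6% of all genes above. Scaling moved this even split: 51 members were above after each array was centred on its median and 53 after quantile normalization, with a median of 0.07 in both. The arrays did not overlap for 3 members higher in the cold (Mrpl16, Mrpl50 and Mrpl40) and for 1 lower (Mrpl24), where 12.3% of all genes were higher and 20.2% lower in that way. This even balance rested on knockout arrays that lay on either side of the cold group. Knockout replicate 2 was above all 3 cold arrays for 50 members (68.5%; all genes, 39.7%), and knockout replicate 1 was below all 3 for 57 members (78.1%; all genes, 34.2%). Without knockout replicate 1, 1 member (Mrpl24) was lower in the cold, where 1.17% of all genes passed. Without knockout replicate 2, 4 members (Mrpl16, Mrpl39, Mrpl40 and Mrpl50) were higher, where 16.2% of all genes passed and 862 of the 16615 rose, a share like that of the members. Both differences from control use the same 3 control arrays, so their likeness is not independent: 39 members (53.4%) were above the controls without overlap in both groups, as were 5.56% of all genes.

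**Figure D2:**
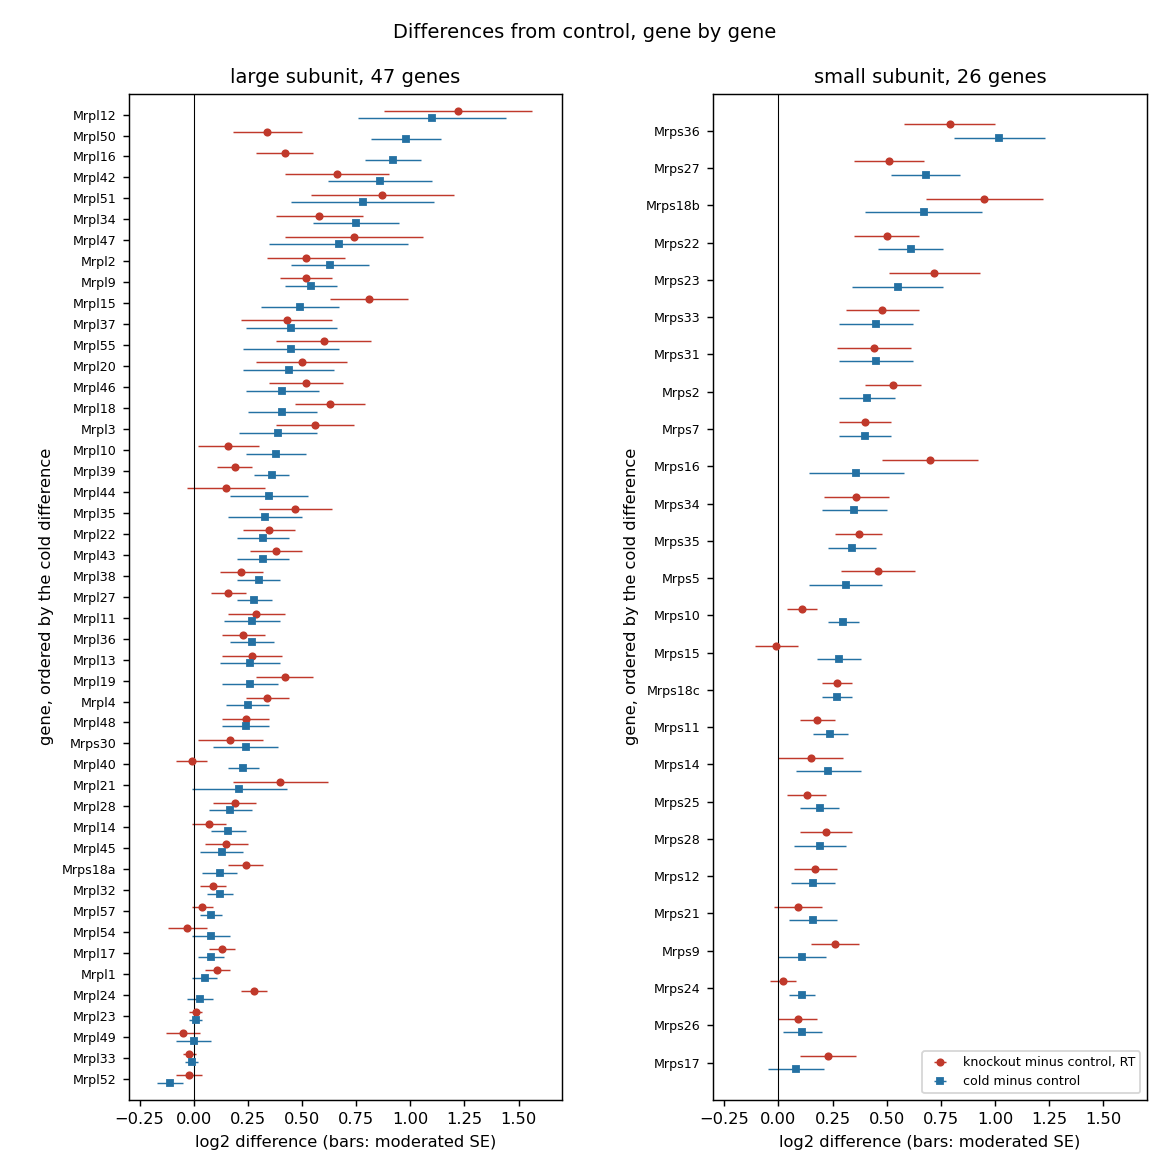
Log2 difference from room-temperature controls for each gene of the large (left) and small (right) subunit, in the knockout (circles) and the cold (squares); bars are moderated standard errors of the limma fit, and genes are ordered by the cold difference. The differences run from -0.05 to 1.22 in the knockout and from -0.11 to 1.10 in the cold, with most genes of both subunits to the right of 0.

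Both subunits gave like values. The 47 large-subunit genes had a median difference of 0.28 in the knockout and 0.28 in the cold, and the 26 small-subunit genes 0.32 and 0.30. In 24 of the 47 and 16 of the 26, the knockout arrays lay wholly above control, as in 9.41% of all genes. In 37 and 23 of them the cold arrays did, as in 14.7% of all genes. Genes with a bacterial counterpart, all 3 versions of S18 included (46), had medians of 0.28 and 0.27, and those without (26) of 0.29 and 0.34. Within the small subunit, the 9 mitochondrion-specific proteins had medians of 0.44 and 0.45, against 0.23 and 0.26 for the 16 with a bacterial counterpart. In the large subunit they were 0.19 and 0.30 for the 17 specific proteins, against 0.34 and 0.27 for the 30 conserved ones. With Mrps18a and Mrps18b counted as specific instead, an alternative chosen after the data were seen, the specific and conserved medians were 0.46 and 0.22 (knockout) and 0.45 and 0.24 (cold) in the small subunit, and 0.20 and 0.35 (knockout) and 0.27 and 0.28 (cold) in the large one. These medians carry no test.

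Among large-subunit proteins conserved from bacteria, Mrpl16, a protein near the catalytic centre of the particle, read 8.84, 8.80 and 8.93 in controls, 9.02, 9.56 and 9.27 in knockouts and 9.64, 9.87 and 9.81 in the cold. The 3 groups did not overlap, with the controls lowest and the cold arrays highest. Mrpl16 rose in the cold by 0.92 ± 0.13 (log2 difference ± SE; limma adjusted p = 0.0265), and its knockout difference was 0.42 ± 0.13 (adjusted p = 0.192). The cold exceeded the knockout by 0.49 ± 0.13 (adjusted p = 0.0820), which did not pass, and by 0.63 without knockout replicate 2 (adjusted p = 0.0173). Mrpl50, a large-subunit protein with no bacterial counterpart, read 9.97, 9.69 and 9.87 in controls, 9.81, 10.44 and 10.30 in knockouts and 10.79, 10.82 and 10.86 in the cold. Its cold arrays lay together above all others, while knockout replicate 1 fell among the controls. Mrpl50 rose in the cold by 0.98 ± 0.16 (adjusted p = 0.0362), and the knockout difference was 0.34 ± 0.16 (adjusted p = 0.348). The cold exceeded the knockout by 0.64 ± 0.16 (adjusted p = 0.0728), and by 0.77 without knockout replicate 2 (adjusted p = 0.0268). Both calls were lost in 10 of 20 alternative settings, the leaving out of any of 7 single arrays among them, while their cold differences stayed between 0.87 and 0.99 for Mrpl16 and between 0.90 and 1.04 for Mrpl50. The 20 settings include a fit with array weights that did not converge.

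Mrpl12, the stalk protein through which bacterial-type ribosomes recruit translation factors, had the largest difference of any member in both comparisons. It read 7.13, 7.27 and 7.19 in controls, 7.71, 9.26 and 8.29 in knockouts and 8.35, 8.28 and 8.26 in the cold. All knockout and cold arrays were above all controls, but the knockout arrays spanned 1.56, the widest range of any member within a group. The differences were 1.22 ± 0.34 in the knockout (adjusted p = 0.150) and 1.10 ± 0.34 in the cold (adjusted p = 0.154), and neither passed. Both errors use 1 estimate of the spread shared by all groups. The SD was 0.07 in control, 0.79 in knockout and 0.04 in cold arrays. The knockout difference was 1.58 without knockout replicate 1, where it passed (adjusted p = 0.0272), and 0.80 without knockout replicate 2 (adjusted p = 0.0902). The cold difference passed without knockout replicate 2 (adjusted p = 0.0155). Mrpl11, a partner of the stalk base, moved less, with means of 7.81 ± 0.13, 8.10 ± 0.21 and 8.08 ± 0.14 (SD, n = 3) in control, knockout and cold arrays.

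Other conserved proteins of the large subunit were higher in the knockout or in both groups without passing. Mrpl9 read 7.86, 7.90 and 7.85 in controls, 8.22, 8.66 and 8.29 in knockouts and 8.47, 8.47 and 8.29 in the cold. Every knockout and cold array stood above the controls, and the differences were 0.52 ± 0.12 (adjusted p = 0.0936) and 0.54 ± 0.12 (adjusted p = 0.0734). Mrpl15 read 7.46, 7.41 and 7.24 in controls, 7.78, 8.56 and 8.20 in knockouts and 7.97, 7.84 and 7.78 in the cold. It was above control on every array of both groups, by 0.81 ± 0.18 in the knockout (adjusted p = 0.0953) and 0.49 ± 0.18 in the cold (adjusted p = 0.200). Mrpl18, of the family that binds 5S ribosomal RNA in bacteria, read 8.38, 8.36 and 8.47, then 8.66, 9.38 and 9.06, then 8.88, 8.75 and 8.82 in the same order of groups. Both groups again lay clear of the controls, with differences of 0.63 ± 0.16 and 0.41 ± 0.16 (adjusted p = 0.128 and 0.221). Without knockout replicate 1 the knockout differences of Mrpl9, Mrpl15 and Mrpl18 were 0.61, 1.01 and 0.82 and passed (adjusted p = 0.0414, 0.0175 and 0.0175). Without knockout replicate 2 they were 0.39, 0.62 and 0.46 and did not (adjusted p = 0.0791, 0.0993 and 0.122).

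Mrpl24 was the member whose knockout arrays lay above both other groups without overlap. It read 9.63, 9.71 and 9.61 in controls, 9.81, 10.03 and 9.97 in knockouts and 9.70, 9.69 and 9.67 in the cold. The knockout was above control by 0.28 ± 0.06 (adjusted p = 0.0885) and the cold below the knockout by 0.25 (log2 difference -0.25 ± 0.06, adjusted p = 0.0719), with no overlap in either case, and the cold was within 0.03 of control. Both differences passed without knockout replicate 1 (0.35 and -0.31, adjusted p = 0.0177 and 0.0435). Mrpl40, a mitochondrion-specific protein, showed the other pattern: 7.98, 8.00 and 7.90 in controls, 7.85, 8.04 and 7.96 in knockouts and 8.22, 8.09 and 8.27 in the cold. Its cold arrays lay above all others, by 0.24 ± 0.07 over the knockout (adjusted p = 0.0895; 0.0399 without knockout replicate 2), and its knockout arrays spread around the controls. Mrpl39, also mitochondrion-specific, read 10.96, 11.02 and 10.98 in controls, 11.05, 11.33 and 11.16 in knockouts and 11.44, 11.29 and 11.32 in the cold, so that the knockout arrays reached into the cold range at their upper end. Its cold difference was 0.36 ± 0.08 (adjusted p = 0.0709), which passed without knockout replicate 1 or 2 (0.0314 and 0.0199). Mrps30, which sits in the large subunit despite its name, overlapped control in the knockout (8.22, 8.82 and 8.47 against 8.42, 8.22 and 8.36), and its cold arrays read 8.51, 8.73 and 8.47. Mrpl51, a mitochondrion-specific protein chosen for its promoter after its values were seen, read 8.63, 8.25 and 8.52 in controls, 8.60, 10.02 and 9.38 in knockouts and 9.11, 9.23 and 9.40 in the cold. Its knockout replicate 1 fell among the controls, and the differences of 0.87 ± 0.33 and 0.78 ± 0.33 did not pass (adjusted p = 0.248 and 0.239).

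In the small subunit no gene passed in either comparison with control. Mrps27, an RNA-binding protein of the pentatricopeptide repeat family, read 8.02, 7.84 and 7.88 in controls, 8.15, 8.73 and 8.39 in knockouts and 8.75, 8.67 and 8.36 in the cold. Both groups lay above the controls, by 0.51 ± 0.16 and 0.68 ± 0.16 (adjusted p = 0.194 and 0.0946). Mrps22, a mitochondrion-specific protein, read 7.97, 7.62 and 7.95, then 8.06, 8.63 and 8.36, then 8.43, 8.46 and 8.49. Here too the groups were clear of the controls, with differences of 0.50 ± 0.15 and 0.61 ± 0.15 (adjusted p = 0.177 and 0.101). Mrps2, which has a bacterial counterpart, read 7.07, 7.11 and 7.12 in controls, 7.38, 7.92 and 7.58 in knockouts and 7.43, 7.50 and 7.61 in the cold. Its controls were tight and all other arrays were above them, the knockout by 0.53 ± 0.13 (adjusted p = 0.109) and the cold by 0.41 ± 0.13 (adjusted p = 0.151). Mrps10, another conserved protein, differed by 0.11 ± 0.07 in the knockout, where the arrays overlapped control (7.79, 8.02 and 7.94 against 7.86, 7.74 and 7.82). In the cold it stood at 8.15, 8.02 and 8.14, above every control, with a difference of 0.30 ± 0.07 (adjusted p = 0.0972). Without knockout replicate 1, Mrps2 passed in the knockout (0.65, adjusted p = 0.0267), and Mrps27, Mrps22 and Mrps10 passed in the cold (adjusted p = 0.0462, 0.0402 and 0.0411).

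Mrps15 and Mrps16, both conserved, differed in opposite ways between cold and knockout. Mrps15 read 9.40, 9.21 and 9.26 in controls, 9.24, 9.34 and 9.26 in knockouts and 9.34, 9.65 and 9.72 in the cold. Its knockout mean was within 0.01 of control, and the cold was 0.29 ± 0.10 above the knockout (adjusted p = 0.136). Mrps16 read 7.19, 7.52 and 7.49 in controls, 7.80, 8.63 and 7.86 in knockouts and 7.84, 7.80 and 7.65 in the cold. It had the lowest cold-minus-knockout difference of any member, -0.34 ± 0.22 (adjusted p = 0.360), which rested on knockout replicate 2: the other knockout arrays lay at the level of the cold. Mrps12, a protein of the decoding centre, had small differences of 0.17 ± 0.10 and 0.16 ± 0.10 from control (adjusted p = 0.427 and 0.362).

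Mammals have 3 versions of the bacterial S18 protein, and they differed in size of change on these arrays. Mrps18b read 8.96, 9.05 and 8.97 in controls, 9.30, 10.52 and 9.99 in knockouts and 9.69, 9.61 and 9.67 in the cold. All arrays of both groups lay above the controls, with differences of 0.95 ± 0.27 and 0.67 ± 0.27 (adjusted p = 0.152 and 0.222). Without knockout replicate 1 both passed (1.26 and 0.67, adjusted p = 0.0152 and 0.0434), and without knockout replicate 2 the knockout difference was 0.66 (adjusted p = 0.143). A dimmer row that Mrps18b shares with Gm16279 read 5.68, 5.83 and 5.88 in controls. It read 5.91, 6.32 and 6.03 in knockouts and 5.75, 5.88 and 5.88 in the cold. On that row the knockout arrays lay above the controls and the cold arrays overlapped them. Mrps18c, the version that takes the place of S18 in the small subunit, read 8.60, 8.83 and 8.75, then 8.96, 9.08 and 8.96, then 9.06, 8.98 and 8.96. Its 2 differences were both 0.27 ± 0.07 (adjusted p = 0.121 and 0.104), without overlap. Mrps18a, the version in the large subunit, read 7.46, 7.37 and 7.48 in controls, 7.56, 7.87 and 7.60 in knockouts and 7.56 on all 3 cold arrays. Its differences were 0.24 ± 0.08 and 0.12 ± 0.08 (adjusted p = 0.226 and 0.449), and a difference between the 3 genes was not tested. The same value to 6 decimals recurred on 4 arrays for Mrps18a and on 3 for Mrps18c. The part of these repeats in the size of their differences was not tested either.

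Mrps36 carries a ribosomal name but is also known as a component of the oxoglutarate dehydrogenase complex of the citric acid cycle. It read 7.33, 7.21 and 7.20 in controls, 7.63, 8.50 and 7.99 in knockouts and 8.47, 8.25 and 8.07 in the cold. Every array of both groups was above the controls, by 0.79 ± 0.21 in the knockout (adjusted p = 0.138) and 1.02 ± 0.21 in the cold (adjusted p = 0.0699). The cold difference was the largest among genes listed with the small subunit and passed in 6 of 20 alternative settings. These 20 include a fit with array weights that did not converge. The knockout difference was 0.99 without knockout replicate 1 (adjusted p = 0.0346) and 0.56 without knockout replicate 2 (adjusted p = 0.129).

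**Figure D3:**
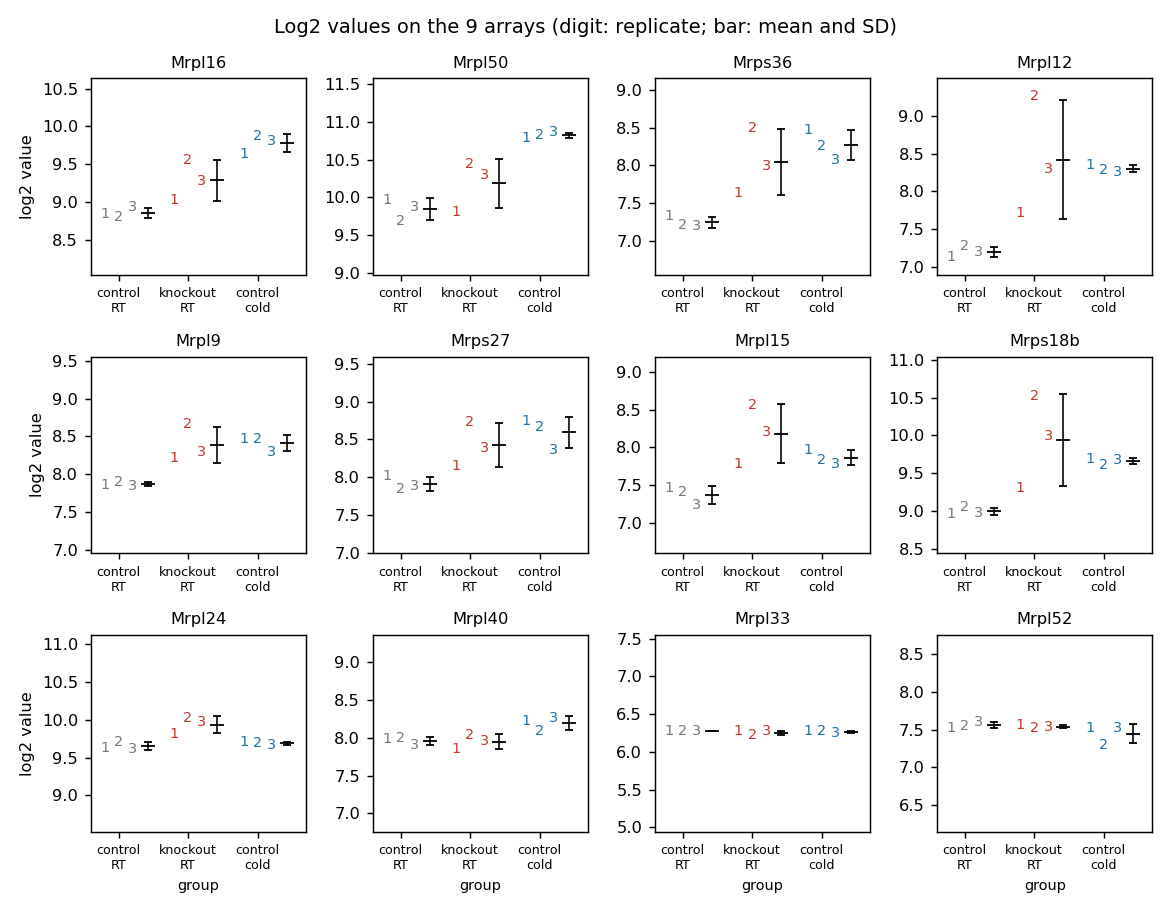
Log2 values of 12 members on the 9 arrays (digits are replicate numbers, bars the group mean and SD, n = 3; RT, room temperature; all panels span the same log2 distance). Mrpl16 and Mrpl50 are highest in the cold, Mrpl12 and Mrps18b reach their highest value on knockout replicate 2, and Mrpl33 and Mrpl52 lie nearly level across the groups.

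A few members differed little between groups. Mrpl33, whose row carries 3 Entrez gene IDs, read 6.27 on all 3 controls, 6.27, 6.22 and 6.27 in knockouts and 6.27, 6.27 and 6.25 in the cold. Mrpl23, a protein at the exit of the peptide tunnel, read 7.01, 7.03 and 7.03 in controls and 7.03 on each of the other 6 arrays. Such repeats belong to the deposited values: 16 members (21.9%) had the same value to 6 decimals on at least 3 arrays, as had 38.6% of all genes tested. For Mrpl33 and Mrpl23 the same value recurred on 7 and 8 arrays, and the part of these repeats in their small differences was not tested. Mrpl52 read 7.52, 7.55 and 7.60, then 7.56, 7.52 and 7.54, then 7.52, 7.30 and 7.52, and its cold difference of -0.11 ± 0.06 was the lowest of any member (adjusted p = 0.368). The groups overlapped, with cold replicate 2 alone below the rest. Mrpl49 and Mrpl54 overlapped control in both groups. Their knockout differences were -0.05 ± 0.08 and -0.03 ± 0.09 (adjusted p = 0.774 and 0.885), and in the cold Mrpl54 differed by 0.08 ± 0.09.

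Across the 9 arrays most members followed a common course. The median correlation of a member with the mean of the other members was 0.874 (Pearson's r over 9 arrays, a description), against -0.104 for all other genes tested. It was above 0.9 for 33 members and below 0 for Mrpl33 and Mrpl52, at -0.745 and -0.356. Of the 16542 other genes tested, 597 were above 0.9 and 9104 below 0. All points share the arrays and the 3 groups. The genes outside the set whose values over the 9 arrays were closest to the member mean were Gm5529 (r = 0.997), Grsf1 (0.993), Coq10b (0.991), Lncbate1 (0.990) and Mkks (0.990). Grsf1 encodes an RNA-binding protein of the mitochondrial RNA granules, Coq10b a coenzyme Q-binding protein and Lncbate1 a long noncoding RNA known from brown adipocytes. Grsf1 read 10.44, 10.40 and 10.38 in controls, 10.50, 11.31 and 10.76 in knockouts and 10.85, 10.82 and 10.89 in the cold, which repeats the step from knockout replicate 1 to 2 and the level cold group. Its differences of 0.45 ± 0.18 in both comparisons did not pass (adjusted p = 0.282 and 0.228).

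The other genes needed for mitochondrial translation were read from lists of known genes. Of 5 mitochondrial ribosomal proteins with other names, 0 passed the threshold in the knockout, with a median of 0.32. The knockout arrays of all 5 lay wholly above control, as in 9.41% of all genes. In the cold 1 of the 5 rose (all genes, 1.36%), with a list median of 0.20. That gene was Ptcd3, a pentatricopeptide repeat protein of the small subunit, at 10.37, 10.46 and 10.37 in controls, 10.93, 11.54 and 11.18 in knockouts and 11.34, 11.35 and 11.47 in the cold. All knockout and cold arrays were above control, by 0.82 ± 0.14 (adjusted p = 0.0611) and 0.99 ± 0.14 (adjusted p = 0.0252). Gadd45gip1 differed by 0.27 ± 0.06 in the knockout (adjusted p = 0.0865) and 0.08 ± 0.06 in the cold. Mrpl58, named Ict1 on the platform and able to release peptides from stalled ribosomes, differed by 0.32 ± 0.10 and 0.21 ± 0.10 without overlap (adjusted p = 0.197 and 0.297).

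Translation factors followed the ribosomal proteins more closely than assembly factors did in their medians. The 14 translation factors had medians of 0.31 in the knockout and 0.33 in the cold, and 1 of them rose, in the cold (all genes, 1.36%). It was Tufm, the elongation factor that brings aminoacyl-tRNA to the ribosome, at 8.35, 8.30 and 8.39 in controls, 8.60, 9.57 and 8.97 in knockouts and 9.61, 9.56 and 9.49 in the cold. The cold difference was 1.21 ± 0.21 (adjusted p = 0.0465) and the knockout difference 0.70 ± 0.21 (adjusted p = 0.185), with every array above control. Mtif2, an initiation factor, differed by 0.58 ± 0.11 in the knockout (adjusted p = 0.0738) and Lrpprc, which stabilises mitochondrial messages, by 1.20 ± 0.24 (adjusted p = 0.0821). The 25 genes of ribosome assembly and rRNA modification had medians of 0.08 and 0.09, and 0 passed in either comparison (limma). At an unadjusted p under 0.05, 6 were higher in the knockout, 6 were higher in the cold and 0 were lower. Of all genes, 8.96% were higher in the knockout and 9.37% in the cold at that level. Oxa1l, listed with them as the inner-membrane insertase for the ribosome's products, was at the upper end of the list with 0.86 ± 0.17 in the knockout (adjusted p = 0.0802) and 0.65 ± 0.17 in the cold (adjusted p = 0.111).

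The 21 mitochondrial aminoacyl-tRNA synthetase genes and partners, which charge the tRNAs, had medians of 0.07 and 0.18. Of these, 1 rose in the cold (all genes, 1.36%), Gatb, a subunit of the amidotransferase that makes glutaminyl-tRNA. It read 7.44, 7.31 and 7.37 in controls, 7.26, 7.44 and 7.38 in knockouts and 7.67, 7.81 and 7.81 in the cold. Only its cold arrays lay apart, by 0.39 ± 0.07 over control (adjusted p = 0.0434) and 0.40 ± 0.07 over knockout (adjusted p = 0.0358). For 13 genes of mitochondrial transcription and genome maintenance the medians were 0.24 and 0.23, with 0 past the threshold (limma). At an unadjusted p under 0.05, 9 were higher in the knockout and 6 in the cold, where 8.96% and 9.37% of all genes were. The 9 regulators of mitochondrial biogenesis had medians of 0.16 in the knockout and -0.04 in the cold, where 5 of the 9 were below 0. None of the regulators passed the threshold, and 4 were higher in the knockout and 2 in the cold at that unadjusted level, against the same shares of all genes. The medians hide a split list, with upper quartiles of 1.87 in the knockout and 1.13 in the cold. In each group 4 of the 9 lay wholly above control (all genes, 9.41% and 14.7%). In the cold 2 lay wholly below it (all genes, 18.2%). Ppargc1a, also a thermogenic marker here, had the largest differences, 3.29 ± 0.89 and 1.73 ± 0.89 (limma adjusted p = 0.142 and 0.31). Ppargc1b, a coactivator for mitochondrial genes, read 7.48, 7.50 and 7.57 in controls, 8.58, 10.22 and 9.38 in knockouts and 8.63, 8.73 and 8.58 in the cold. Both groups lay above control, by 1.87 ± 0.36 (adjusted p = 0.0776) and 1.13 ± 0.36 (adjusted p = 0.158). Nrf1 itself, whose motif was searched, overlapped across the room-temperature groups, at 7.24, 7.44 and 7.33 in controls and 7.50, 7.33 and 7.33 in knockouts, and stood at 7.29, 7.28 and 7.32 in the cold.

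The respiratory chain, whose core subunits this ribosome makes, had larger median differences than the ribosomal proteins. Of 72 nuclear-encoded subunits of oxidative phosphorylation, 28 rose in the cold (all genes, 1.36%) with a list median of 1.01. In the knockout 1 rose (all genes, 0.235%), with a median of 0.77. That one was Ndufs8 of complex I, at 12.43, 12.38 and 12.35 in controls, 13.16, 13.87 and 13.42 in knockouts and 14.00, 13.94 and 13.93 in the cold. The 3 groups did not overlap, and the differences were 1.10 ± 0.16 (adjusted p = 0.0494) and 1.57 ± 0.16 (adjusted p = 0.00984). The mitochondrial genome's own products were represented by mt-Rnr1 alone, the ribosomal RNA of the small subunit, which stayed within 0.03 of the top of the scale, 19.93, on every array, so that a difference there could not be read.

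Cytosolic ribosomal proteins took another course. Only 35 of 80 have a row named by their symbol alone, so the list is partial. Their medians were 0.22 in the knockout and -0.52 in the cold, and the cold lay below the knockout by a median of 0.75 (log2 difference -0.75). In that last comparison 7 of the 35 fell, where 1.18% of all genes did, and 0 passed in either comparison with control (limma). At an unadjusted p under 0.05, 3 were higher in the knockout, near the share of 8.96% over all genes. In the cold 28 were lower at that level, where 1836 of the 16615 genes tested were. Rpl35 of the large cytosolic subunit read 15.06, 15.73 and 15.28 in controls, 15.92, 15.45 and 15.64 in knockouts and 14.57, 14.54 and 14.60 in the cold. Its cold arrays lay below all others, by 1.10 against the knockout (log2 difference -1.10 ± 0.18, adjusted p = 0.0351). A test of the mitochondrial against the cytosolic set was not made.

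**Figure D4:**
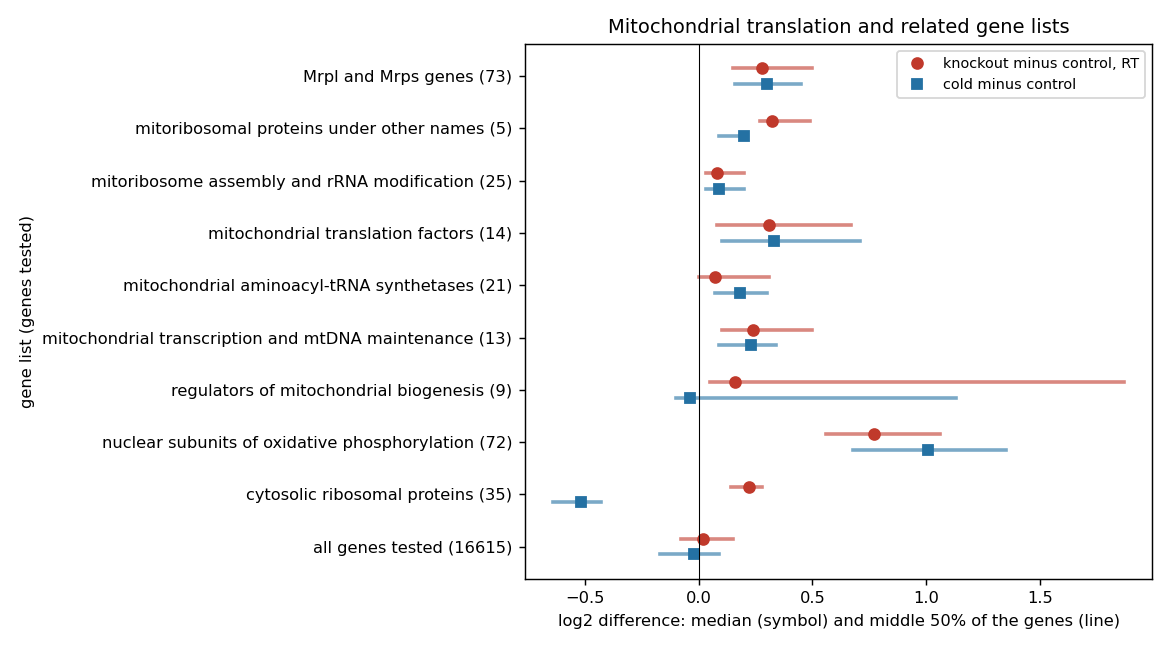
Median log2 difference from room-temperature controls (symbols) and quartiles of the genes (lines) for each list, in the knockout (circles) and the cold (squares); the number of genes tested is in brackets. The Mrpl and Mrps medians of 0.28 and 0.30 lie between those of all genes tested (0.02 and -0.02) and those of oxidative phosphorylation (0.77 and 1.01), and the cytosolic ribosomal proteins lie at 0.22 and -0.52.

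Markers of cell types moved with the same arrays. The mean of the 10 thermogenic adipocyte markers, relative to control, was 3.01, 5.69 and 4.81 on the knockout arrays and 4.49, 4.25 and 3.99 in the cold, in the same order of arrays within the knockout as the ribosomal genes. The 10 adipocyte markers stood at -0.45, 0.00 and -0.14 in the knockout and between -0.03 and -0.01 in the cold. The 9 T cell markers tested stood at 1.46, -0.20 and 0.84 in the knockout and between -1.06 and -0.94 in the cold, and the 10 macrophage markers at 0.40, -1.16 and -0.22 and between -1.28 and -1.05. The 9 B cell markers tested stood at 0.48, -0.87 and -0.11 in the knockout and between -1.57 and -0.61 in the cold, and the 9 endothelial markers at -0.71, 0.19 and -0.21 and between 0.13 and 0.41. Knockout replicate 1, with the lowest ribosomal mean of its group at 0.11, thus had the highest T cell, B cell and macrophage means of its group. It also had the lowest thermogenic, adipocyte and endothelial means. The part of these cell types in the ribosomal differences was not tested. The 10 skeletal muscle markers stood at -1.53, 0.18 and -0.41 in the knockout, in the same order of arrays as the ribosomal genes. In the cold they stood at 0.26, -0.80 and -4.14, where the ribosomal mean was 0.35, 0.33 and 0.35. The part of muscle in the ribosomal differences was not tested either.

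**Figure D5:**
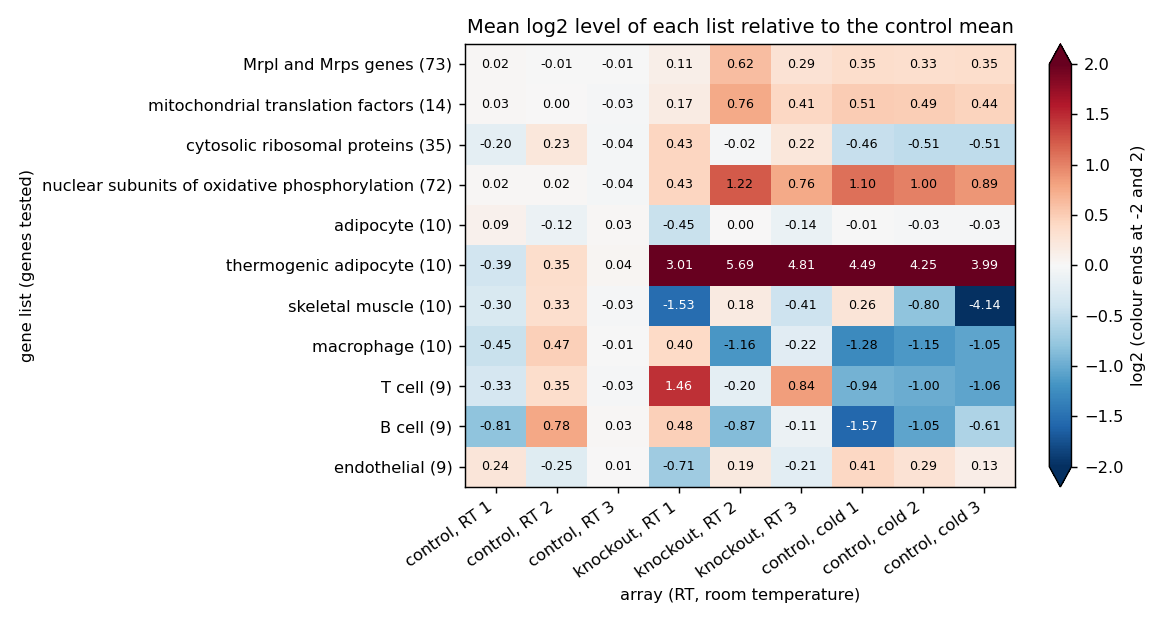
Mean log2 level of each gene list on each array, minus the mean of that list over the 3 room-temperature controls (genes tested in brackets; colours end at -2 and 2). On the knockout arrays the Mrpl and Mrps genes (0.11, 0.62 and 0.29) rank in the same order as the thermogenic markers (3.01, 5.69 and 4.81). So do the adipocyte, endothelial, skeletal muscle, translation factor and oxidative phosphorylation lists. The T cell markers (1.46, -0.20 and 0.84) rank in the reverse order, as do the macrophage, B cell and cytosolic ribosomal lists.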

How the data were processed

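RNA from inguinal fat was measured on 9 arrays, 3 for each of 3 groups given by the labels. The authors deposited log2 values for 72688 rows, made with Affymetrix Expression Console per the submitters' processing notes; no version, summarisation, normalization or build is given in the sources used here. That these are log2 values was inferred from their range, 1.84 to 19.93. With 3 arrays a group, the number of arrays limits precision.

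Row names came from GEO's platform annotation, which gives 1 symbol to 30439 transcript cluster rows; symbols were updated through Entrez IDs with RefSeq (GRCm38.p6), which also gave the promoters. Each gene was read from its brightest row, where the row mean reached the median row mean (5.31). In R 4.3.3 with limma 3.58.1, 3 group means were fitted to all 9 arrays (lmFit and eBayes, 6 residual and 1.23 prior degrees of freedom), and differences were tested two-sided with Benjamini-Hochberg adjustment over 16615 genes at 0.05. Errors of differences are moderated standard errors, from 1 estimate of the spread shared by the 3 groups. The fit was tested on simulated data.

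The members, the lists and the rule for naming genes were chosen with earlier results of these data known. Named for each comparison were members past the threshold or of smallest p, up to 8, the 4 lowest, a set of members with known roles, and up to 3 genes of a list. Other genes were named after their values were seen. Alternatives covered normalization, scaling, the prior, array weights, the samples fitted, the filter, the row of a gene, the replicate number as a block, and each array left out. Same-numbered arrays did not deviate together (9 pairs, correlations from -0.46 to 0.09), so the numbers were not taken as pairs.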

Additional observations from a re-analysis of the deposited data

How the results depend on the processing

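The median differences kept within the spread between arrays (pooled SD 0.15) under all 20 alternatives. They ran from 0.19 to 0.36 for knockout against control, from 0.28 to 0.34 for cold against control and from -0.08 to 0.10 for cold against knockout. Over these alternatives, 63 of 73 members kept the sign of their knockout difference, 70 that of their cold difference and 21 that of cold against knockout.

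Counts of members past the threshold moved far more. For cold against control the 2 calls became 5 with quantile normalization (2.44% of all genes passed, against 1.56% before), 35 with only these 2 groups in the fit, 0 with no filter on low values (33 members at an unadjusted p under 0.05 in limma), and 0 without the array of each group that lay between the other 2 (7 at that p). They ranged from 0 to 20 when 1 array was left out (5.92% of all genes at the highest). For knockout against control the range was 0 to 18 (5.06%), and for cold against knockout 0 to 4 (16.2%). The cause was not tested.

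Array weights gave 63, 62 and 31 calls in the 3 comparisons, but that fit did not converge and called 70.7%, 53.8% and 59.6% of all genes, and Mrps12 reversed to 0.16 (cold against knockout) in it.

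With the replicate block, 0 members passed in the cold (29 at an unadjusted p under 0.05; adjusted p 0.0682 for Mrpl16 and 0.119 for Mrpl50), and 0 in each other comparison. Of the 9 arrays, 2 correlated best with their own number in both other groups. The arrays carry no detection call, so signal over background was judged by the row mean alone.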

Other observations

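Rows named after pseudogenes of the family were kept apart from the members, since their sequence can capture the parent's RNA. Mrps36-ps1 had means of 8.94 ± 0.17 in control, 10.49 ± 0.78 in knockout and 10.72 ± 0.37 in cold arrays (SD, n = 3). Mrps36-ps2 had means of 8.10 ± 0.11, 9.11 ± 0.54 and 9.47 ± 0.40. In both, all knockout and cold arrays lay above the controls, as they did for Mrps36 itself, and the cold differences were 1.78 ± 0.38 and 1.37 ± 0.29 (limma adjusted p = 0.0735 and 0.0760). Mrpl48-ps differed by 0.40 ± 0.15 and 0.44 ± 0.15 without overlap, and Mrpl23-ps1 by 0.28 ± 0.16 and 0.27 ± 0.16 with overlap, and 0 of the 4 passed (adjusted p from 0.0735 to 0.443).

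Of the rows shared with another symbol, that of Mrpl30 and Gm6238 read 7.13, 7.12 and 6.99 in controls, 7.22, 8.15 and 7.55 in knockouts and 7.51, 7.55 and 7.54 in the cold. That of Mrps6 and the transporter Slc5a3 read 10.20, 9.31 and 9.58, then 8.50, 9.16 and 8.64, then 10.06, 10.09 and 10.09, with the knockout arrays below all others. That of Mrpl53 and Ccdc142 stayed between 6.19 and 6.26 on every array. The row of Mrps18b and Gm16279 is given with Mrps18b above. Which of the 2 genes of a shared row gave the signal cannot be told apart on these arrays.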
